A study of Mus musculus with 48 samples.

Results

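The response of lung epithelium to bleomycin was set against the response of the whole lung in the same mice, to ask which genes changed to a different extent in the 2 compartments. Bleomycin is a drug that injures the alveoli of the mouse lung and is used to bring about fibrosis. In the RiboTag method a ribosomal protein bears an HA tag in the cells where Cre has acted, here labelled lung epithelial, and an anti-HA antibody pulls down the RNA on their ribosomes. The alveolar and airway epithelium lines the air spaces and renews itself after injury, while the lung as a whole also holds endothelial, mesenchymal and immune cells. Whole lung therefore includes the epithelium, and the compartments are nested rather than separate.

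The libraries were chosen by their labels: all control-treated mice of batches S135 and S151, both compartments, which gave 24 of the 48 libraries of the series. The 6 bleomycin mice comprised 2 of S135, given Vehicle, and 4 of S151, given Axum8. The 6 saline mice comprised 3 of S135, given Vehicle, and 3 of S151, given Axum8. All were RiboTag mice, 9 male and 3 female by label, and the Cre driver, strain, age, route and time after bleomycin are not stated in the labels. Batch S061 held no saline mouse and was left out. The labels describe the libraries of both compartments in the same words, as immunoprecipitated, and do not say how the preparation of whole lung RNA differed.

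Libraries of S135 had total counts of 11484883 to 20468041, and those of S151 had 24751240 to 36945995. TMM scaling factors, which correct for the make-up of a library, ran from 0.724 to 1.04 in epithelial libraries of bleomycin mice and from 0.641 to 0.789 in those of saline mice, against 1.02 to 1.57 and 1.03 to 1.49 in whole lung libraries. A group of 146 genes abundant in S061 held 0.846% of the counts of the whole lung library of bleomycin mouse 149 and at most 0.0529% of any other library used here, and none of the 146 was called by the test below. The deposited table names genes by Ensembl identifier, the identifiers could be paired with no symbol here, and the epithelial label could not be checked against marker genes. Genes are therefore given by identifier, 2 for each direction, with no role, and the others by their counts and ranges.

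Few genes passed the test of a difference between the compartments. The quantity tested was the interaction, the log2 change of bleomycin over saline in epithelium minus the same change in whole lung, so that a positive value means that the change lay higher in epithelium, sign included. Of 17212 genes tested, 16 were called at an adjusted p under 0.05 (0.0930%) by edgeR's quasi-likelihood test with the mouse as a block. The change lay higher in epithelium for 10 genes (0.0581%) and lower for 6 (0.0349%). At an unadjusted p under 0.05 there were 1405 genes (8.16%), of which 703 lay higher in epithelium and 702 lower. Within epithelium bleomycin changed 752 genes (4.37%), 450 raised (2.61%) and 302 lowered (1.75%), and within whole lung 1740 (10.1%), 1151 raised (6.69%) and 589 lowered (3.42%).

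The count of 16 depended on single mice and on the pairing. Leaving out 1 mouse gave 5 genes without bleomycin mouse 148, 9 without 149, 6 without 204, 6 without 208R, 13 without 225 and 38 without 206. It gave 6 without saline mouse 146, 8 without 152, 18 without 153, 6 without 207, 8 without 221 and 13 without 230. With the pairing of libraries by mouse left out of the model, edgeR called 0 genes (1177 had an unadjusted p under 0.05), while DESeq2 with the pairing called 137. Of the 16 genes, 5 kept their call whichever of the 12 mice was left out, 3 with the change higher in epithelium and 2 with it lower, and they included the 4 genes described next. The other 11 kept it in 1 to 6 of the 12 fits.

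**Figure D1:**
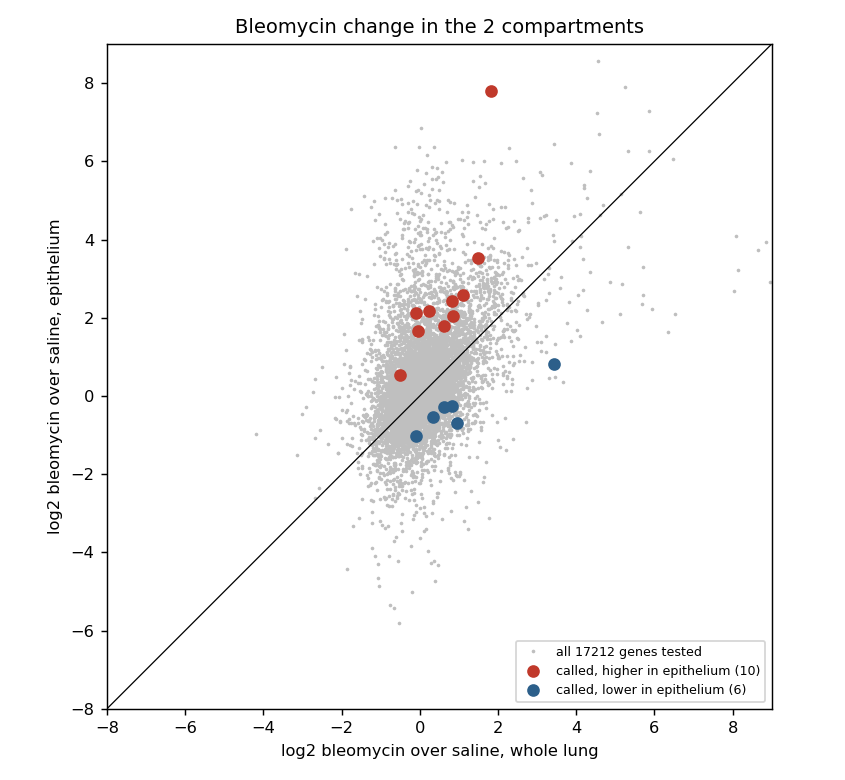
Log2 change of bleomycin over saline in epithelium (vertical axis) against that in whole lung (horizontal axis) for the 17212 genes tested, with the 10 genes called higher and the 6 called lower in epithelium in colour. The line marks equal change, 1 gene lies outside the plotted range, and the epithelial values spread more widely (5% to 95% quantiles -0.89 to 2.09) than those of whole lung (-0.71 to 1.04).

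Over all genes the interaction was centred near 0, with a median of 0.01 and a range from -0.85 to 1.78 between the 5% and 95% quantiles. The upper tail was the longer, as it was for the change in epithelium alone and for that in whole lung alone. The median standard error was 0.30 for the interaction, 0.28 for the change in epithelium and 0.18 for that in whole lung, so a difference between the compartments was measured less precisely than the whole lung response.

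ENSMUSG00000054072 rose in both compartments and rose more in epithelium. In epithelial libraries it had 6.60 CPM (counts scaled to the TMM-adjusted library size) at lowest, 14.7 at the median and 32.7 at highest in bleomycin mice, and 0.898, 4.08 and 7.05 CPM in saline mice. In whole lung libraries the corresponding levels were 26.2, 42.0 and 132 CPM in bleomycin mice and 10.4, 44.7 and 102 CPM in saline mice. The pooled groups overlapped in both compartments. Within each batch every epithelial library of a bleomycin mouse lay above every one of a saline mouse, while in whole lung the groups also overlapped within S151. The log2 change was 2.42 ± 0.32 in epithelium (SE, adjusted p = 0.000146) and 0.83 ± 0.24 in whole lung (SE, adjusted p = 0.0413), each from edgeR's quasi-likelihood test within the compartment. The interaction was 1.55 ± 0.20 (SE, adjusted p = 0.005, edgeR). The ratio of epithelium over whole lung within a mouse ran from -2.42 to -1.13 on the log2 scale in the 6 bleomycin mice and from -3.84 to -2.92 in the 6 saline mice, with no overlap, so the gene stayed lower in epithelium but by less.

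ENSMUSG00000041801 also rose in both compartments, and its place between them turned round. It had 17.5 CPM at lowest, 159.7 at the median and 260.1 at highest in epithelial libraries of bleomycin mice, and 4.10, 18.9 and 33.9 CPM in those of saline mice. Whole lung libraries had 16.1, 88.6 and 139 CPM in bleomycin mice and 11.9, 20.4 and 50.8 CPM in saline mice. Within each batch the bleomycin and saline libraries did not overlap in either compartment, while over both batches they did. The change was 2.57 ± 0.20 in epithelium (SE, adjusted p = 5.62e-07, edgeR) and 1.11 ± 0.19 in whole lung (SE, adjusted p = 0.00242, edgeR), and the interaction was 1.39 ± 0.18 (SE, adjusted p = 0.005, edgeR). The median log2 ratio of epithelium over whole lung was 0.81 in bleomycin mice (range 0.12 to 0.90) and -0.90 in saline mice (range -1.52 to 0.25). These ratios overlapped, through bleomycin mouse 149 and saline mouse 221.

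ENSMUSG00000002985 rose in whole lung, while its change in epithelium had the opposite sign and did not pass the test. Epithelial libraries had 91.2 CPM at lowest, 183 at the median and 292 at highest in bleomycin mice, and 231, 246 and 613 CPM in saline mice. Whole lung libraries had 437, 655 and 1506 CPM in bleomycin mice and 296, 398 and 584 CPM in saline mice. The groups overlapped in each compartment. The log2 change was -0.69 ± 0.32 in epithelium (SE, adjusted p = 0.297, edgeR) and 0.95 ± 0.26 in whole lung (SE, adjusted p = 0.0364, edgeR), and the interaction was -1.57 ± 0.22 (SE, adjusted p = 0.00508, edgeR). The ratio within a mouse separated the groups, at -2.57 to -1.39 in bleomycin mice and -0.79 to 0.07 in saline mice on the log2 scale.

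ENSMUSG00000031838 had the same pattern at lower levels. Epithelial libraries had 64.0 CPM at lowest, 120.0 at the median and 177 at highest in bleomycin mice, and 90.5, 124 and 179 CPM in saline mice. Whole lung libraries had 61.3, 148 and 288 CPM in bleomycin mice and 60.0, 75.02 and 99.0 CPM in saline mice. The epithelial groups overlapped almost throughout, and in whole lung only bleomycin mouse 149 fell within the range of saline mice. The change was -0.25 ± 0.19 in epithelium (SE, adjusted p = 0.55, edgeR) and 0.84 ± 0.22 in whole lung (SE, adjusted p = 0.03, edgeR), with an interaction of -1.08 ± 0.15 (SE, adjusted p = 0.00508, edgeR). The log2 ratio of epithelium over whole lung ran from -0.74 to 0.06 in bleomycin mice and from 0.57 to 0.85 in saline mice, with no overlap.

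**Figure D2:**
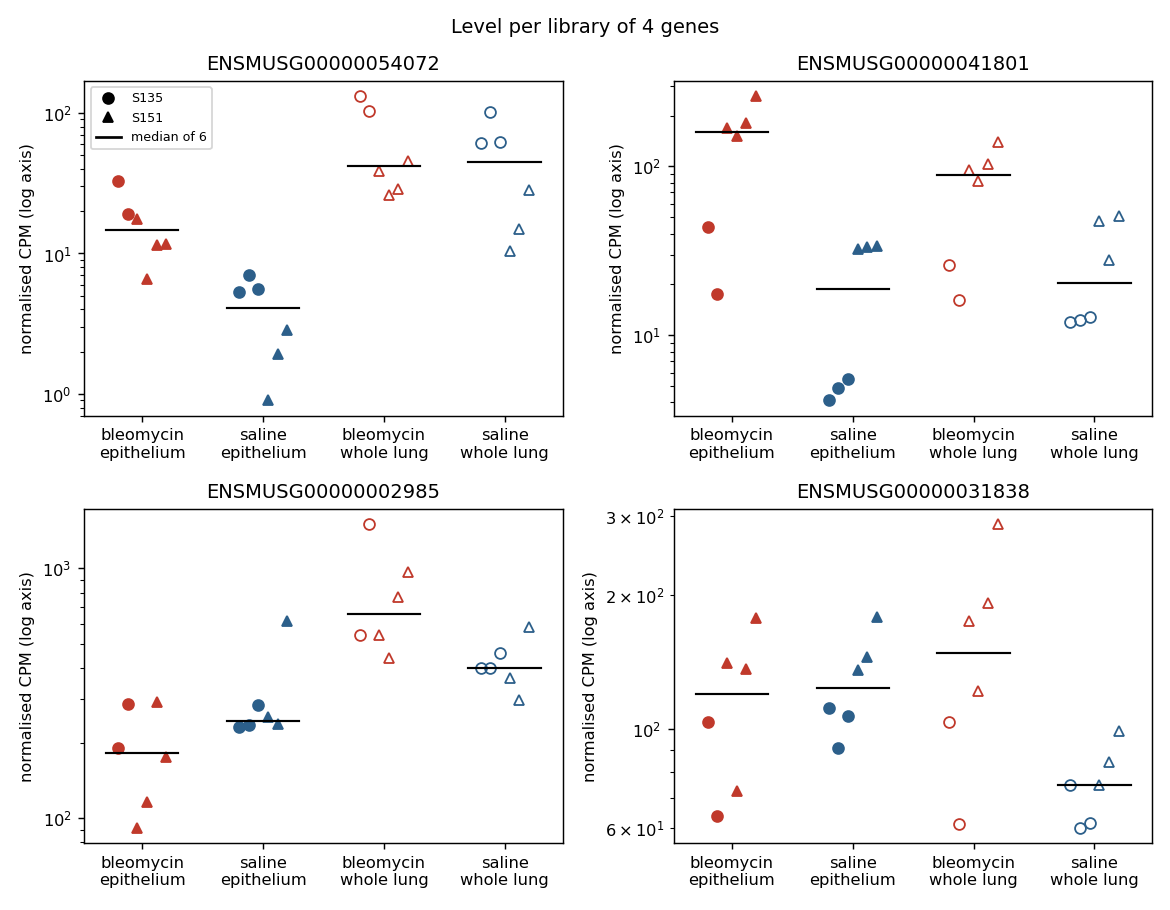
Normalised CPM per library on a log axis for the 4 genes, with bleomycin left of saline, filled symbols for epithelium and open ones for whole lung. Circles mark S135, triangles S151 and bars the median of 6 libraries; for ENSMUSG00000054072 the epithelial median was 14.7 CPM in bleomycin mice and 4.08 CPM in saline mice.

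In bulk RNA of this kind, a change in the number of cells of a type and a change in RNA per cell cannot be told apart. The 4 genes were called from both batches together, so the batches are set side by side as a description. The difference of mean log2 ratios between bleomycin and saline mice was 1.39 in S135 and 1.61 in S151 for ENSMUSG00000054072, and 1.78 and 1.15 for ENSMUSG00000041801. It was -1.20 and -1.83 for ENSMUSG00000002985, and -0.62 and -1.39 for ENSMUSG00000031838. A test of whether the interaction itself differed between the batches called 0 genes in edgeR (0.00%), and 1041 (6.05%) had an unadjusted p under 0.05, 2 of the 16 among them. ENSMUSG00000031838 was among these 2 (unadjusted p = 0.0070, edgeR), with the larger difference in S151. Fitted alone, S135 called 12 genes, 2 of them among the 16, and S151 called 0 in edgeR, where 1103 had an unadjusted p under 0.05. In edgeR each of the 4 genes lost its call in either batch alone (adjusted p from 0.0509 to 0.503) and without the pairing (adjusted p from 0.0678 to 0.317). With the mouse as a random block in limma voom, ENSMUSG00000041801 kept its call (adjusted p = 0.0411), and ENSMUSG00000054072 (adjusted p = 0.254), ENSMUSG00000002985 and ENSMUSG00000031838 (adjusted p = 0.0707 each) lost it. ENSMUSG00000054072 also missed the threshold in limma voom with the fixed block (adjusted p = 0.0523), and ENSMUSG00000041801 in edgeR without a batch term (adjusted p = 0.0522).

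The called genes fell into a few patterns of response. Of the 10 whose change lay higher in epithelium, 5 rose in both compartments, by 2.03 to 7.79 in epithelium and 0.83 to 1.82 in whole lung on the log2 scale. A further 4 rose in epithelium, by 1.66 to 2.17, and had values of -0.11 to 0.62 in whole lung that did not pass the test (adjusted p from 0.0524 to 0.945, edgeR). The remaining gene fell in whole lung, at -0.51 (adjusted p = 0.0375, edgeR), and had 0.55 in epithelium (adjusted p = 0.142, edgeR). Of the 6 whose change lay lower in epithelium, 4 rose in whole lung, by 0.62 to 3.42, with epithelial values of -0.69 to 0.82 that did not pass the test (adjusted p from 0.297 to 0.55, edgeR). The other 2 fell in epithelium, at -1.02 and -0.55, beside whole lung values of -0.09 and 0.35 that did not pass. None of the 16 was called in opposite directions in the 2 compartments.

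**Figure D3:**
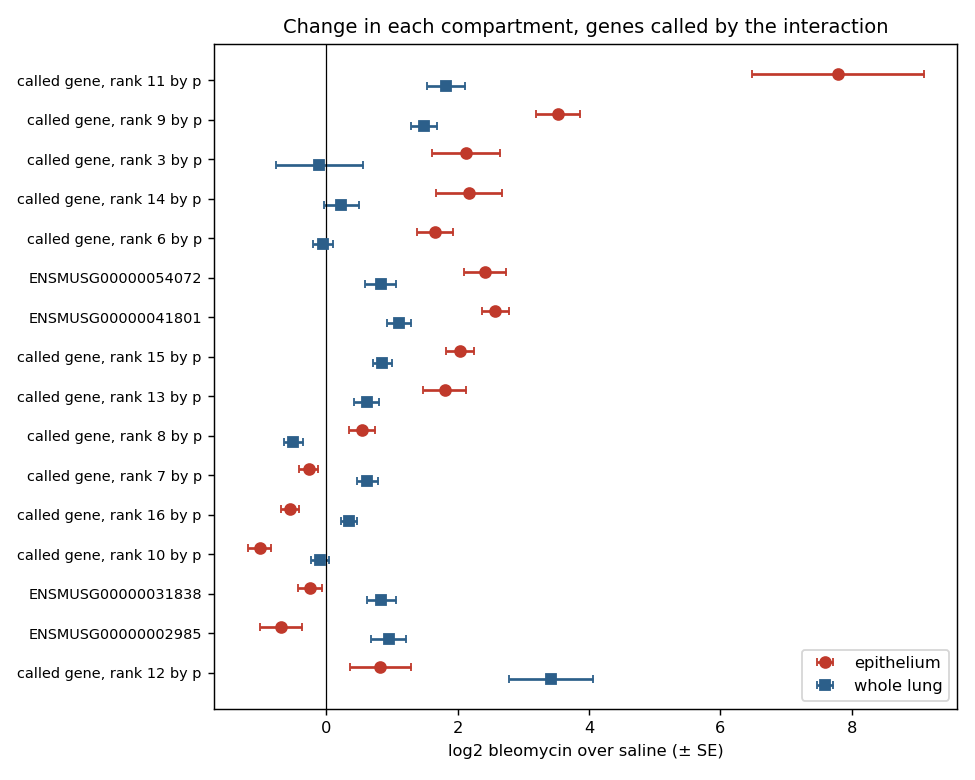
Log2 change of bleomycin over saline with its SE in epithelium (circles) and whole lung (squares) for the 16 called genes, ordered by the interaction. The topmost gene, at 7.79 in epithelium, was not counted in the epithelium of any saline mouse, and the lowest had 0.82 in epithelium and 3.42 in whole lung.

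The direction of the difference went with where a gene stood in saline lung. All 10 genes with the change higher in epithelium had a median ratio of epithelium over whole lung below 0 in saline mice on the log2 scale, and in bleomycin mice 4 of them had a median above 0. Of the 6 with the change lower in epithelium, 1 had a median above 0 in bleomycin mice and 5 did in saline mice. The saline ratio enters the interaction with a negative sign, so this is a description of the called genes and not a separate result. The ratios of bleomycin and saline mice did not overlap for 11 of the 16, 8 with bleomycin above saline and 3 below, where 0.697% of all genes tested did not overlap (0.389% above, 0.308% below). These ratios rest on the same contrast as the calls.

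The 10 genes had means of at most 19.0 CPM in saline epithelium and from 3.30 to 59.6 CPM in saline whole lung. The gene with the highest interaction, 6.46, had 185 counts over the 6 epithelial libraries of bleomycin mice and 0 over those of saline mice, so its fitted interaction and its fitted epithelial change of 7.79 depend on the prior count and are no bound. Its mean of 1.42 ± 0.88 CPM in epithelium after bleomycin (SD, n = 6) was at least 44.6-fold higher than a floor of 3 counts over the saline group, which covers counting error only. The same gene had 12.1 ± 4.34 CPM in whole lung of bleomycin mice and 3.75 ± 1.34 CPM in that of saline mice (SD, n = 6 each). The gene with the lowest interaction, -2.49, had 29.0 ± 41.6 CPM in whole lung of bleomycin mice and 2.38 ± 1.27 CPM in that of saline mice, and 7.77 ± 9.44 and 5.51 ± 4.45 CPM in epithelium (SD, n = 6 each). Bleomycin mouse 149, whose whole lung library held the most RNA of the genes abundant in S061, had 25.97 CPM in epithelium and 111 CPM in whole lung for this gene. Without that mouse the bleomycin mean was 4.12 ± 3.45 CPM in epithelium and 12.6 ± 12.02 CPM in whole lung (SD, n = 5). The interaction of -2.25 was then no longer called (adjusted p = 0.225, edgeR). These means pool the batches, and in epithelium the gene was higher in S135. In epithelium of S151 it had 0.511 to 6.32 CPM in bleomycin mice and 0.693 to 2.72 CPM in saline mice. Bleomycin mouse 148 of S135 had 9.00 CPM there, within the 6.82 to 11.5 CPM of saline mice of S135. Below the threshold, the next 4 genes by p, 3 with a positive and 1 with a negative interaction, had interactions from -0.92 to 1.62 and an adjusted p of 0.0545 (edgeR).

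Mice that also received 3G9, an antibody against integrin αvβ6, or KIRA8, an inhibitor of the stress sensor IRE1α, took no part in the test, and the ratios of those in S135 and S151 are given beside those of their own batch, scaled over all 48 libraries and with no test. For ENSMUSG00000054072, the log2 ratio of epithelium over whole lung ran from -2.34 to -0.23 in the 4 mice given bleomycin and 3G9 in S151, -1.96 to -1.17 in bleomycin control mice and -3.47 to -2.94 in saline mice. In S135 it was -2.33 and -2.28 in the 2 mice given bleomycin and KIRA8, -2.44 and -1.98 in bleomycin control mice and -3.86 to -3.49 in saline mice. For this gene all 6 of these mice lay above every saline mouse of their batch. The saline and bleomycin control mice are those from which the 4 genes were chosen. For each of the 4 genes such a placing is therefore a description and no separate support.

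For ENSMUSG00000041801 the ratio ran from 0.74 to 1.09 with 3G9, 0.78 to 0.92 in bleomycin control and -0.61 to 0.23 in saline mice of S151. With KIRA8 it was 0.50 and 0.67, beside 0.11 and 0.77 in bleomycin control and -1.52 to -1.23 in saline mice of S135. Every mouse given either treatment again lay above the saline mice of its batch, which had a part in choosing the gene.

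For ENSMUSG00000002985 the ratio ran from -2.96 to -1.13 with 3G9, -2.61 to -1.38 in bleomycin control and -0.57 to 0.05 in saline mice of S151. With KIRA8 it was -1.02 and -0.87, between the -2.40 and -1.48 of bleomycin control and the -0.79 to -0.72 of saline mice of S135. For ENSMUSG00000031838 the 3G9 mice ran from -1.51 to -0.01, beside -0.72 to -0.35 in bleomycin control and 0.77 to 0.83 in saline mice. The KIRA8 mice had 0.34 and 0.65, the second of them within the 0.57 to 0.77 of saline mice, where the bleomycin control mice had 0.02 and 0.05.

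Batch S061 has no saline mouse to set its ratios against, and they did not all lie with those of bleomycin mice in the other batches. For ENSMUSG00000002985 the 3 bleomycin control mice of S061 had ratios of -0.46 to 0.46, above all 6 bleomycin control mice of the other batches and partly within the saline range, and the 3 given KIRA8 had a median of 0.99, the lowest at 0.33. For ENSMUSG00000054072 the S061 ratios were -0.85 to -0.31 in bleomycin control mice and 0.09 to 0.73 with KIRA8, higher than in any control mouse of S135 or S151. For ENSMUSG00000041801 they were 0.29 to 1.12 and -0.89 to 0.82, and for ENSMUSG00000031838 -0.46 to -0.12 and -0.17 to 0.45. The level of a ratio thus differed between batches, and what differed about S061 was not tested.

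**Figure D4:**
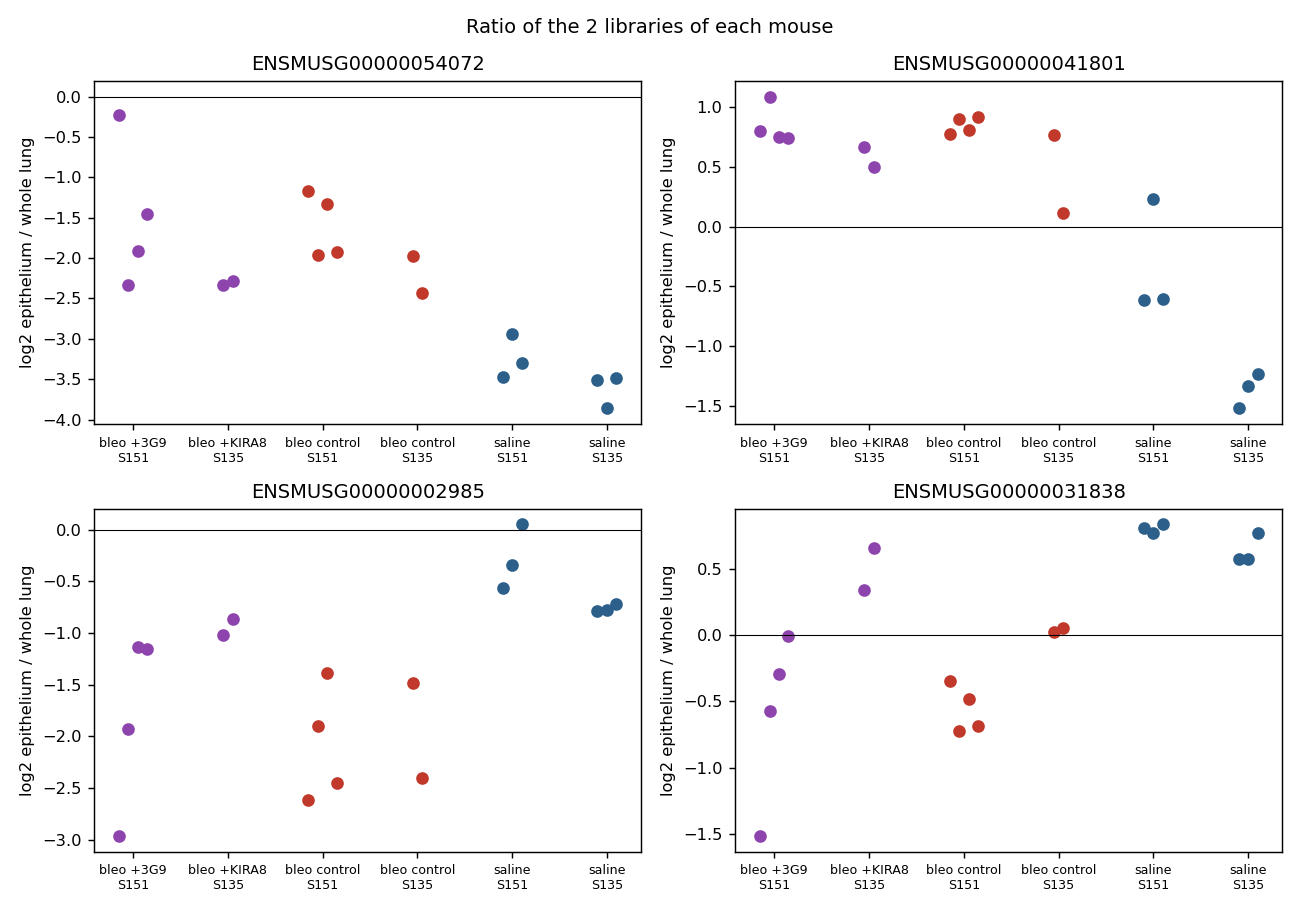
Log2 ratio of the epithelial over the whole lung library of each mouse of S135 and S151 for the 4 genes, by treatment and batch, each point a mouse. For ENSMUSG00000054072 and ENSMUSG00000041801 the bleomycin mice of either batch lie above the saline mice of that batch, and for the other 2 genes the control-treated bleomycin mice lie below them.

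Genes picked for their response in 1 batch had median changes of the same sign in both compartments of the other, and among raised genes the epithelial median was the larger. To read the size of the response in mice that had no part in choosing the genes, genes were picked in 1 batch and read in the other. The 584 genes raised in whole lung of S151 (3.39% of those tested) had median changes in S135 of 1.27 in epithelium and 1.02 in whole lung, with a median interaction of 0.33. The 95 raised in whole lung of S135 (0.552%) had 1.27 in epithelium and 0.92 in whole lung of S151, with a median interaction of 0.16. Over all genes tested, the median interaction was 0.02 in S135 and 0.09 in S151. The interaction lay above 0 for 64.1% of the 584 genes, beside 51.2% of all genes in S135, but for 58.9% of the 95, beside 59.0% of all genes in S151, a share at that background.

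Picked in epithelium instead, the 289 genes raised in S151 (1.68%) had medians in S135 of 1.68 in epithelium and 1.09 in whole lung, with a median interaction of 0.70. The 238 raised in epithelium of S135 (1.38%) had 1.18 and 0.84 in S151, with a median interaction of 0.24. The interaction lay above 0 for 77.7% of the 289 genes, beside 51.2% of all genes in S135. For the 238 the share was 63.9%, beside 59.0% of all genes in S151, and so nearer to its background. Among lowered genes the medians lay closer. The 185 lowered in whole lung of S151 (1.07%) had -0.42 in epithelium and -0.51 in whole lung of S135, and the 44 lowered in epithelium of S151 (0.256%) had -0.70 and -0.51. The 40 lowered in whole lung of S135 (0.232%) had -0.39 and -0.54 in S151, and the 176 lowered in its epithelium (1.02%) had -0.53 and -0.48. Lowered genes picked in epithelium still had fewer interactions above 0 than the background. The share was 25% of the 44, beside 51.2% of all genes in S135, with a median interaction of -0.24. It was 40.9% of the 176, beside 59.0% of all genes in S151, with a median of -0.06. Those picked in whole lung did not, at 51.4% of the 185 in S135 and 67.5% of the 40 in S151. A list picked in a compartment tends to hold genes with a larger change there, and these medians and shares carry no test.

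The interaction was also read along the enrichment of genes in saline epithelium, in 5 groups of equal size ordered by the saline ratio of epithelium over whole lung in the other batch. In the group with the lowest ratio, a median of -2.94 in S135, the median interaction in S151 was 0.48, beside median changes of 0.43 in epithelium and -0.08 in whole lung. It was 0.17, 0.06, 0.01 and -0.03 in the groups that followed. With the order taken from S151 and the change read in S135, the lowest group had 0.31 and the others lay between -0.03 and 0.01. The median changes of that lowest group in S135 were 0.067 in epithelium and 0.002 in whole lung. The median rise of 0.43 in epithelium of S151 was thus not matched in S135. Genes of the lowest group had a median epithelial level of 0.855 CPM with the order from S135 and 0.894 CPM with that from S151, and the part of low counts and of the scaling factors in this pattern was not tested.

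**Figure D5:**
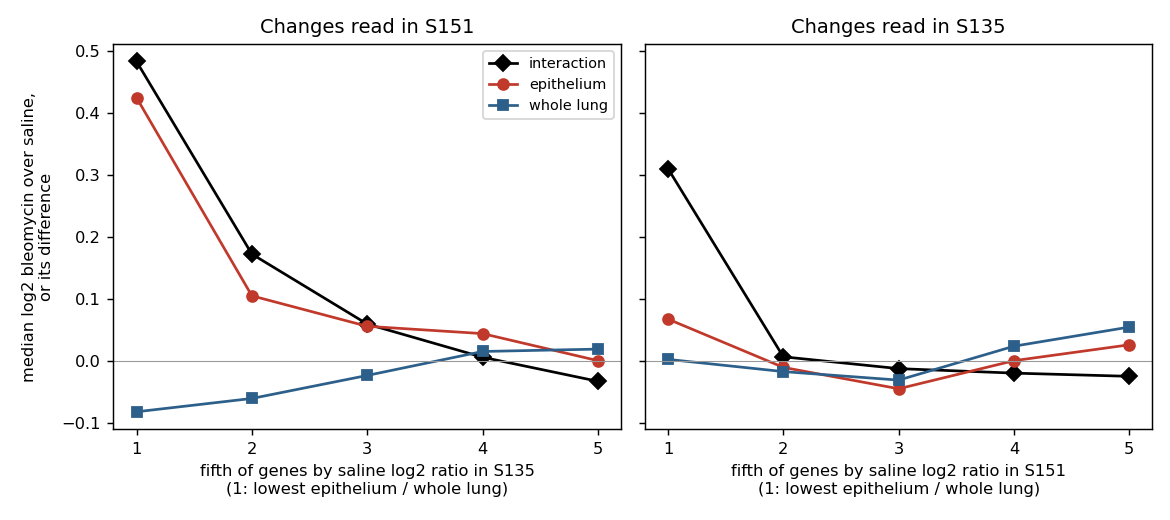
Median interaction and median log2 change of bleomycin over saline in epithelium and whole lung, for 5 groups of genes ordered by the saline ratio of epithelium over whole lung in the other batch. The lowest group has a median interaction of 0.48 in S151 and 0.31 in S135, and the group with the highest ratio has -0.03 in each.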

How the data were processed

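The authors deposited 1 table of raw read counts per Ensembl gene and library, 42548 genes in all, from Lexogen QuantSeq Forward libraries, per the labels' protocols. STAR 2.5.2b and GRCm38 are named in the submitters' processing notes, while no counting program or annotation release is stated. Columns were matched to samples by mouse number and compartment letter, E being epithelium and I the other compartment, and none was left over. The reference table of 49997 genes matched 0 identifiers, so the 28 gene symbol lists could not be applied, no sequence could be shown and the rule for named genes (all called genes if at most 40, filled up to 20 by p, and 3 of each list) was met with identifiers only for the first 2 by p in each direction. The experiment and the lists were chosen with earlier results of these data known.

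The counts were tested with edgeR 4.0.16 in R 4.3.3 (TMM, filterByExpr on compartment and exposure, robust quasi-likelihood fit, Benjamini-Hochberg over 17212 genes, called at 0.05). The model held mouse, compartment, batch within compartment and compartment by bleomycin. Changes within a compartment came from separate fits with a batch term on the same genes and scaling, without the pairing, so they do not subtract exactly to the interaction. The standard error is the log2 change over the root of F. Printed CPM use TMM-scaled library sizes, and ratios use log2 CPM with a prior count of 2. Each mouse is a separate animal per the labels. The pairing comes from the mouse numbers: the departures of both libraries of a mouse from the mean of their group within the batch had a correlation across genes of 0.182 at the median (0.0952 to 0.474), against -0.0685 for libraries of different mice of the same group. Departures from a group mean sum to 0, so a positive value within a mouse pushes those between mice below 0. The second value is therefore no independent baseline. Tested on simulated data for the interaction with 17212 genes, the fit called 59 of 100 genes changed by 1 on the log2 scale, 88 of 100 changed by 2, and 6 of the unchanged. The changed genes were drawn only from those with an average log2 CPM above 2, so recovery among lower genes was not measured. The simulated data gave 153 calls in all and the real data 16, so the Benjamini-Hochberg cut was looser in the simulation. The recovery may therefore overstate that of the test on the real data. Alternatives were the pairing, tool (DESeq2 1.42.0, limma 3.58.1), scaling, filter, shrinkage, batch, sex and single mice.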

Additional observations from a re-analysis of the deposited data

Results flagged for a closer look

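Every called gene was one whose bleomycin change differed between the compartments by a test of the difference itself. The interactions of the genes higher in epithelium were, in order of p, 1.55 and 1.39 for the 2 genes given by identifier, then 2.06, 1.65, 1.06, 2.16, 6.46, 1.12, 2.01 and 1.23 on the log2 scale. Those of the genes lower in epithelium were -1.57 and -1.08 for the 2 given by identifier, then -0.88, -0.95, -2.49 and -0.88.

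In 2 groups of 6 mice a single mouse stood apart from the others in the log2 ratio of epithelium over whole lung. For ENSMUSG00000041801 bleomycin mouse 149 had 0.12, the lowest of its group, where the median was 0.81. For the gene with the lowest interaction saline mouse 221 had -1.22, where the median of saline mice was 1.12. Chance gives such a gap in about 1 in 20 groups, and 32 groups were looked at.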

How the results depend on the processing

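The sign of the interaction held for all 16 called genes under the 16 alternatives and the 12 fits that left out a mouse, wherever a value could be had, while the number of calls did not hold. The model described gave 16 genes, 10 with the change higher in epithelium and 6 with it lower. Without the replicate block, which treats paired libraries as independent, edgeR called 0 (0 higher, 0 lower, 1177 at an unadjusted p under 0.05), and within S151 alone it called 0 (1103 at an unadjusted p under 0.05). DESeq2 called 137 (98 higher, 39 lower), and with no low-count filter 49 were called (31 higher, 18 lower). Without a batch term 3 were called (1 higher, 2 lower), and limma-trend on the ratio per mouse called 10 (6 higher). With the S061 mice added 29 were called (20 higher), the 16 among them. S061 holds no saline mouse and had its own compartment term, so its mice added nothing to the estimate of the interaction itself. They changed the estimate of variance, the filter (17956 genes tested, not 17212) and the scaling, so the kept calls are no support from further mice. The mouse as a random block gave 18, 8 of them among the 16. With 1 mouse left out the counts ran from 5 to 38, from 3 to 18 for higher and from 2 to 20 for lower. Within epithelium, DESeq2 called 1279 genes against 752, and leaving out a mouse gave 371 (without bleomycin mouse 148) to 1102. In whole lung DESeq2 called 2720 against 1740, and leaving out a mouse gave 912 (without bleomycin mouse 148) to 2018. The epithelial count was also over 1.5 times lower without saline mouse 207, at 482. Scaling within each compartment, an alternative chosen after seeing the data, gave 750 and 1729. The other alternatives for counts stayed within 1.5 times. The causes were not tested. A fit that also left out liver genes was not run, since that list is of symbols; leaving out the 146 genes limited to S061 gave the same 16. Depth limits genes under about 1 CPM in epithelium, for which the ratio rests on few counts.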
